A study of Mus musculus with 1 sample.

Results

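The genes described here are 8 components of the cytolytic granule, the secretory organelle with which T and natural killer (NK) cells kill their targets. They are the granzymes Gzma, Gzmb, Gzmk and Gzmm, the pore-forming protein perforin (Prf1), the granule membrane protein Nkg7, the granule proteoglycan serglycin (Srgn) and Serpinb9, an inhibitor of granzyme B. The 8 were chosen by function, with earlier results of these data known, and all 8 were among the 32285 genes of the deposited matrix. Peripheral T cells of 1 vehicle-treated mouse with small cell lung cancer (SCLC) were analysed. The mouse came from an autochthonous model on a C57BL/6 background with conditional deletion of Rb1 and Trp53, in which tumors are started by Cre delivered to the airways with an adenovirus, and it received phosphate-buffered saline as vehicle. T cells were isolated from 150 µl of its blood by negative selection, and gene expression and T cell receptor (TCR) sequences were read from the same droplets. There was 1 library of 1 mouse, so no value has a replicate error and no test was run. All intervals are exact 95% intervals for counting error.

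Each droplet barcode stands for a cell, and each unique molecular identifier (UMI) for a captured RNA molecule. Of 300213 barcodes, 1600 passed the limit for a called cell and were used, with 1334 to 18399 UMIs and a median of 3934.5. They were grouped by coreceptor RNA. The 106 barcodes with a UMI of Cd79a, a B cell receptor component, formed 1 group. The rest were 366 CD4-only barcodes, 706 CD8-only barcodes (Cd8a or Cd8b1), 49 with both coreceptors and 373 with none. Median UMIs were 3382 in the CD4-only, 5570.5 in the CD8-only, 3657 in the Cd79a and 2927 in the no-coreceptor group. Counts were therefore also given as UMIs pooled over a group per 10000, or after thinning to 2500 UMIs per barcode. The 6 T cell markers (CD3 chains and TCR constant genes) summed to 29.4 UMIs per 10000 in CD4-only, 26.0 in CD8-only and 5.03 in Cd79a barcodes, and 5 B cell markers other than Cd79a to 36.5 in Cd79a barcodes. In the no-coreceptor group, markers of other blood cells were found: erythroid markers summed to 520.6 UMIs per 10000 (in 46 of its 373 barcodes), neutrophil markers to 88.3 (in 24), monocyte markers to 10.8 (in 71) and platelet markers to 6.49 (in 61). Such markers were also found at lower levels in the compared groups. Platelet markers were in 50 CD4-only and 93 CD8-only barcodes (1.17 and 0.625 per 10000), and monocyte markers in 25 and 83. Neutrophil markers summed to 1.29 per 10000 in CD8-only barcodes, where 8 barcodes held them. Ribosomal protein genes made up under 10% of the UMIs in 626 of the 1600 barcodes, among them 144 CD4-only, 212 CD8-only and 228 no-coreceptor barcodes. In 14 barcodes the NK cell markers Ncr1, Klrb1c, Klre1, Klra8 and Klri2 summed to at least 10 UMIs, with at most 2 UMIs of the T cell markers and no TCR clonotype. These NK-marker barcodes, a definition chosen after the data were seen, lay in the no-coreceptor group (11) and in the CD4-only, CD8-only and Cd79a groups (1 each), and results that turn on them are given with and without them.

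In a killer lymphocyte, perforin opens the target membrane and granzymes, a family of serine proteases, enter and cleave proteins of the target. Granzyme A and granzyme K cut after basic residues, granzyme B cuts after aspartate and activates caspases, and granzyme M prefers methionine or leucine. Serglycin packs the proteases in the granule, and Nkg7 is needed for efficient release. Serpinb9 protects the killer cell from its own granzyme B. Naive CD8+ T cells carry little granzyme RNA, whereas effector and memory cells carry more, and NK cells hold granzyme A and granzyme B ready.

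RefSeq on GRCm38.p6, the build family of the deposited matrix, places Gzma at chr13:113093824-113100981 and Gzmk at chr13:113171630-113180965. The gap between these neighbours is 70648 bases, with 1 annotated gene in it and 0 protein-coding genes. Gzmb lies at chr14:56258836-56262334, Gzmm at chr10:79689020-79695261, Prf1 at chr10:61297751-61304684, Srgn at chr10:62493833-62527445, Nkg7 at chr7:43437138-43438246 and Serpinb9 at chr13:32997061-33017955. The results turn on Gzma, Gzmb and Gzmk, which were often detected in the same barcodes, and the start regions of these 3 genes are shown, from 250 bases before to 50 bases after the RefSeq start on the strand of the gene. Capitals mark a match to a Runx motif (TGTGGTT or its reverse complement AACCACA) or a T-box motif (GGTGTGA or TCACACC), the motifs of factor families known to act in killer lymphocytes. The windows are chr13:113100932-113101231 for Gzma, chr14:56262285-56262584 for Gzmb and chr13:113180916-113181215 for Gzmk, all on the minus strand.
Gzma: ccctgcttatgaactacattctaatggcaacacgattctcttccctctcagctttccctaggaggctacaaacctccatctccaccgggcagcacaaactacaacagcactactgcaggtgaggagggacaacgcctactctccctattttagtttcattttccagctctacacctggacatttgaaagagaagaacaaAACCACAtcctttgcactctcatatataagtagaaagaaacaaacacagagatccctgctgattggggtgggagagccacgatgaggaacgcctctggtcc
Gzmb: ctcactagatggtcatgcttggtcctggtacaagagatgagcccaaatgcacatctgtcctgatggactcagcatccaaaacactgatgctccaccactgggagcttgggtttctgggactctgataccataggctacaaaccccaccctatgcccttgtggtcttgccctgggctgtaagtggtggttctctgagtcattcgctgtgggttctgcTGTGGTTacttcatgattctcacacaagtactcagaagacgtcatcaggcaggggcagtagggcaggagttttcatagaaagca
Gzmk: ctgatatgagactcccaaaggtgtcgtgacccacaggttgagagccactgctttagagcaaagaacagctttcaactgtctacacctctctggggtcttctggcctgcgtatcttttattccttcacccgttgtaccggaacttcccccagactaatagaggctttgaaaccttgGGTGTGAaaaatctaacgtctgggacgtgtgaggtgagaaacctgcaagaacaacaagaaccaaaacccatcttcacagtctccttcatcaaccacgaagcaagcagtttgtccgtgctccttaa
The Runx motif began 51 bases before the start of Gzma and 34 bases before that of Gzmb, and no T-box match was found in either window. The T-box motif began 75 bases before the start of Gzmk, which held no Runx match. Over 32851 promoter windows of the same length, 5.27% held the Runx and 3.98% the T-box motif. A T-box match also stood 13 bases before the start of Nkg7. Of the windows of Gzmm, 1 held a T-box match 189 bases before its start. Of those of Srgn, 1 held a Runx match 203 bases before its start. The other windows of Gzmm and Srgn, and those of Prf1 and Serpinb9, held neither motif. A match is a run of letters and does not show binding.

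Most barcodes with granzyme RNA were CD8-only barcodes. By UMIs this did not hold for Gzma. Of its 1166 UMIs in called barcodes, 462 lay in CD8-only and 597 in no-coreceptor barcodes, and the 14 NK-marker barcodes held 735. At least 1 UMI of Gzma, Gzmb or Gzmk was found in 108 of 706 CD8-only barcodes (15.3%, interval 12.7 to 18.2%) and in 11 of 366 CD4-only barcodes (3.01%, 1.51 to 5.31%). The no-coreceptor group had such a UMI in 23 of 373 barcodes (6.17%, 3.95 to 9.11%). Without NK-marker barcodes the shares were 15.2%, 2.74% and 3.59%, in the same order. In Cd79a barcodes, which stand for cells that should lack these genes, a UMI of the 3 was found in 1 of 106 (0.943%), and that barcode was an NK-marker barcode. Gzmm was found in 3 of the 106 (2.83%). Those of 11784 and 6873 UMIs had a TCR clonotype, with 34 and 19 UMIs of the T cell markers and 11 and 8 of Nkg7. The other, of 2325 UMIs, had no clonotype and no UMI of the T cell markers or Nkg7. After thinning to 2500 UMIs the shares with Gzma, Gzmb or Gzmk were 13.4% of 646 CD8-only and 2.86% of 277 CD4-only barcodes. Among CD8-only barcodes with at least 10% ribosomal UMIs it was 95 of 494 (19.2%). Gzmk was the granzyme found in most CD8-only barcodes, 81 of 706 (11.5%, 9.22 to 14.1%), followed by Gzmm in 59 (8.36%, 6.42 to 10.6%), Gzmb in 52 (7.37%, 5.55 to 9.55%) and Gzma in 35 (4.96%, 3.48 to 6.83%). The intervals of neighbours in this order overlapped. Per detected barcode the order differed. Gzma had a median of 10 UMIs and up to 51 in the barcodes that held it, Gzmk a median of 5 and up to 24, Gzmb a median of 2 and up to 11, and Gzmm a median of 1 and up to 5.

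The other granule genes were found more widely. Nkg7 was detected in 547 of 706 CD8-only barcodes (77.5%, 74.2 to 80.5%) at 9.81 UMIs per 10000, and in 30 of 366 CD4-only barcodes (8.20%). In CD8-only barcodes with at least 10% ribosomal UMIs the share was 92.1%, and in the others 43.4%. Prf1 was detected in 197 CD8-only barcodes (27.9%, 24.6 to 31.4%), mostly as a single UMI (135 barcodes), and in 23 CD4-only barcodes (6.28%). Srgn was not restricted to the cytotoxic groups. It was detected in 546 CD8-only (77.3%), 233 CD4-only (63.7%) and 82 of 106 Cd79a barcodes (77.4%), at 3.98, 5.26 and 6.83 UMIs per 10000. Serpinb9 was sparse, with a UMI in 79 CD8-only (11.2%) and 13 CD4-only barcodes (3.55%). Free RNA, taken as 5% of the UMIs of each barcode with the profile of barcodes of 10 to 50 UMIs, would account for 12.3 of the 462 Gzma UMIs, 4.91 of the 448 Gzmk UMIs and 61.0 of the 4456 Nkg7 UMIs in CD8-only barcodes. In CD4-only barcodes the same share would give 19.5 of the 202 Nkg7 UMIs and 1.56 of the 34 Gzmk UMIs.

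**Figure D1:**
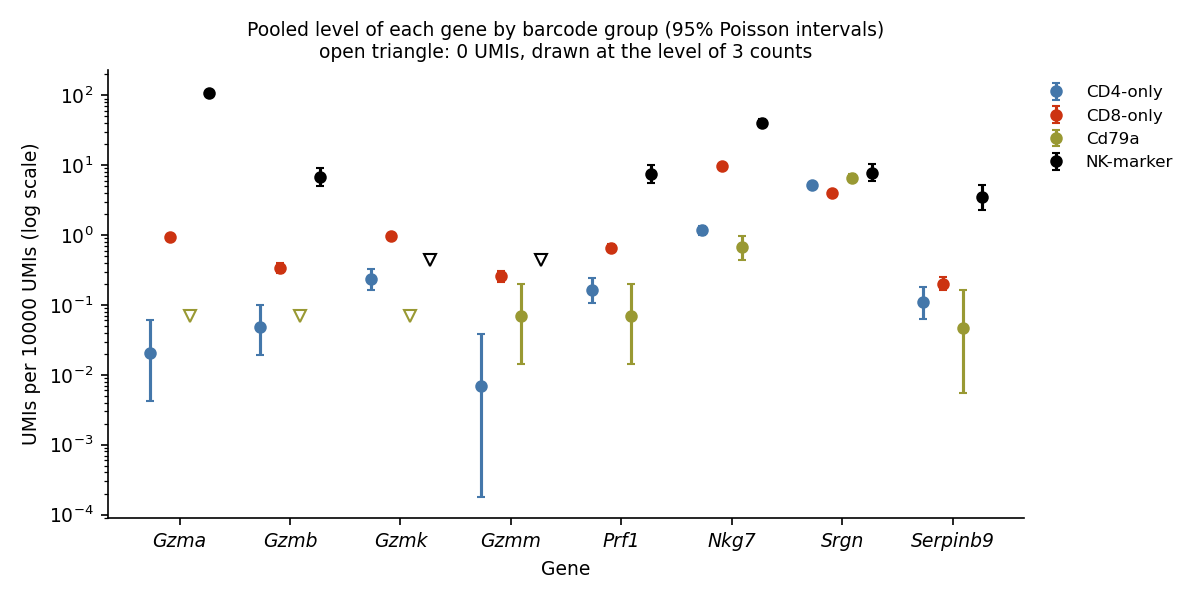
UMIs pooled per 10000 (log scale) for each of the 8 genes in CD4-only, CD8-only and Cd79a barcodes, each without NK-marker barcodes, and in the 14 NK-marker barcodes; bars are exact 95% Poisson intervals and open triangles mark groups with 0 UMIs, drawn at the level that 3 counts would give. NK-marker barcodes lie highest for Gzma (109) and are at 0 for Gzmk and Gzmm, and Srgn lies between 3.98 and 7.87 in every group.

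Pooled, the NK-marker barcodes had a granzyme profile unlike that of the CD8-only group as a whole. Gzma or Gzmb without Gzmk was not particular to them, and was also found in 26 other CD8-only barcodes. Gzma was found in 13 of the 14, with 27 to 85 UMIs each and 109 UMIs per 10000 over the group (101 to 117). Gzmb was found in 11 (6.83 per 10000), Prf1 in 13 (7.58 per 10000), Nkg7 in 13 (40.5 per 10000) and Serpinb9 in 12 (3.56 per 10000). Gzmk and Gzmm were at 0 of 67325 UMIs, which allows up to 0.446 per 10000. This is below the level of Gzmk in CD8-only barcodes (0.986) but above that of Gzmm (0.257). The 0 for Gzmm therefore does not separate the NK-marker barcodes from CD8-only ones. The barcode of the 14 without Gzma had no UMI of any of the 8 genes, and ribosomal protein genes made up 0.35% of its UMIs. The CD3 chain genes Cd3d, Cd3e and Cd3g were at 0 in all 14, while the NK cell markers ranged from 12 to 46 UMIs (56.3 UMIs per 10000, with 0.421 in all CD4-only and 0.385 in all CD8-only barcodes). Both marker lists were used to define these barcodes, so these values follow from the definition and are no separate evidence. The CD4-only value includes an NK-marker barcode, which held 40 of the 61 UMIs of the NK cell markers in that group. Gzma in the no-coreceptor group came largely from them: 12 of 373 barcodes held 597 Gzma UMIs, and 2 of 362 held 2 UMIs once NK-marker barcodes were left out. In the CD4-only group a single NK-marker barcode held 71 of the 74 Gzma UMIs.

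Compared with CD4-only barcodes, 5 of the 8 genes were at least 2-fold higher in CD8-only barcodes, where 4.24% of 10225 genes were that much higher, and 0 were 2-fold lower, where 7.02% of genes were. The median ratio of the 8 was 3.95, and that of all genes 0.863. Without NK-marker barcodes it was 6 of 8, against 4.36% of 10218 genes, with a median of 5.61. Nkg7 differed by 7.04-fold (6.11 to 8.14), Gzmb by 4.52-fold (2.46 to 9.25), Gzmk by 4.20-fold (2.96 to 6.15) and Prf1 by 3.69-fold (2.47 to 5.75). Without NK-marker barcodes Gzmb differed by 7.04-fold (3.33 to 17.8), since 1 such barcode held 4 of its 11 UMIs in the CD4-only group, Nkg7 by 8.34-fold (7.15 to 9.79) and Prf1 by 3.96-fold (2.61 to 6.28). Gzmm had 117 UMIs in CD8-only and 1 UMI in CD4-only barcodes, a ratio of 37.3 (6.57 to 1487). Gzma turned on a single barcode. Its ratio was 1.99 (1.56 to 2.58) with all barcodes and 45.1 (15.3 to 219.7) without NK-marker barcodes, with 426 UMIs in CD8-only and 3 in CD4-only barcodes. On the log2 scale this was 0.99 and 5.50, and it was 4.81 when at least 2 coreceptor UMIs were asked for and 0.61 without barcodes under 10% ribosomal UMIs, which kept the NK-marker barcode. Serpinb9 (1.63-fold, 0.976 to 2.87) did not differ beyond counting error, and was 1.83-fold higher (1.07 to 3.33) without NK-marker barcodes. Srgn was lower in CD8-only barcodes, at 0.758 of the CD4-only level (0.696 to 0.826). Over called barcodes Srgn was at 6.20 UMIs per 10000 with a platelet marker UMI and 4.80 without. Platelet markers summed to 1.17 per 10000 in CD4-only and 0.625 in CD8-only barcodes. The part of platelet RNA in the Srgn ratio was not tested.

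Taken over all CD8-only barcodes, with or without a granzyme, granzymes were found together more often than the product of their shares. Of the 108 barcodes with Gzma, Gzmb or Gzmk, 49 (45.4%, 35.8 to 55.2%) held at least 2 of the 3 and 11 held all 3. Without the NK-marker barcode it was 48 of 107 (44.9%), and after thinning to 2500 UMIs 40.8%. The share was 38.1% in barcodes of 2000 to 4000 UMIs, 47.8% at 4000 to 6000 and 50% at 6000 to 20000, with overlapping intervals. Gzma and Gzmb were both found in 19 barcodes, where the product of shares gives 2.58, and in 18 without the NK-marker barcode (2.46). Gzmb was found in 54.3% of barcodes with Gzma and in 4.92% of those without. Gzmb and Gzmk were both found in 31 barcodes, where the product gives 5.97, and Gzma and Gzmk in 21, where it gives 4.02. The chromosomal neighbours Gzma and Gzmk were thus found together 5.23 times as often as the product, and Gzma and Gzmb, on different chromosomes, 7.37 times. Thinned to 2500 UMIs, these became 5.38 and 8.99, and Gzmb with Gzmk went from 5.20 to 5.70. The shares bound how far a count can exceed the product, so the pairs are not ranked by these ratios. Of the 35 barcodes with Gzma, 21 held Gzmk and 19 held Gzmb. Median UMIs were 5648 in barcodes with none of the 3, 5065 with 1 and 5567 with 2 or 3. Among barcodes with any of the 3, those with 2 or 3 were thus deeper than those with 1. The part of depth in co-detection was not tested beyond the thinning and the ranges of UMIs above.

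**Figure D2:**
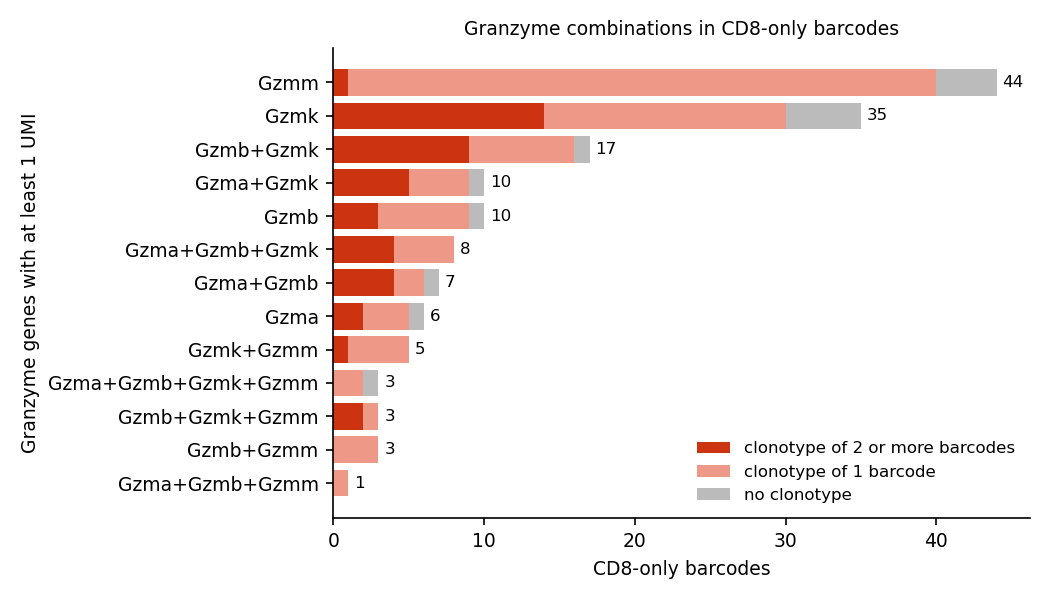
Number of CD8-only barcodes with each combination of Gzma, Gzmb, Gzmk and Gzmm (at least 1 UMI each), coloured by the size of their TCR clonotype; the 554 barcodes with none are not drawn. Gzmm alone (44) and Gzmk alone (35) are the most frequent patterns, and clonotypes of 2 or more barcodes make up 1 of the former and 14 of the latter.

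By detection, granzyme M shared barcodes with the other 3 granzymes less than these did with each other. Of the 59 CD8-only barcodes with Gzmm, 44 held none of Gzma, Gzmb and Gzmk. Gzmm was found with Gzma in 4 barcodes, with Gzmk in 11 and with Gzmb in 10, or 1.37, 1.63 and 2.30 times the product of shares. In pooled UMIs Gzmm was still higher with the other granzymes than without. It was at 0.202 UMIs per 10000 (0.160 to 0.252) with none of the 3 and 0.573 (0.350 to 0.885) with 1. With 2 or 3 of them it was at 0.616 (0.365 to 0.974). After thinning, the shares with Gzmm were 3.70%, 8.93% and 8.95% in the same order. Barcodes with Gzmm and none of the other 3 were deep, with a median of 9523.5 UMIs against 5507 in barcodes with no granzyme, and after thinning the share of CD8-only barcodes with Gzmm fell from 8.36% to 4.54%. The part of depth in this pattern was not tested beyond the thinning. In these 44 barcodes the naive marker Ccr7, a homing receptor for lymph nodes, was at 4.90 UMIs per 10000, against 6.24 in the 598 barcodes with none of Gzma, Gzmb and Gzmk, which include these 44, and 1.44 in barcodes with Gzmk but neither Gzma nor Gzmb. The memory marker Ly6c2 was at 19.8 UMIs per 10000 (18.4 to 21.3), beside 8.41 (8.13 to 8.70) in the 598. Eomes, a T-box factor of memory cells, was at 1.32 (0.979 to 1.73) against 0.466 (0.401 to 0.539).

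Prf1 and Nkg7 were higher where more granzymes were found, and Srgn and Serpinb9 were higher with any of the 3 than with none. Prf1 was at 0.433 UMIs per 10000 (0.370 to 0.503) in CD8-only barcodes with none of Gzma, Gzmb and Gzmk, 1.40 (1.04 to 1.86) with 1 of them and 2.84 (2.26 to 3.52) with 2 or 3. Nkg7 was at 6.56 (6.30 to 6.82), 24.8 (23.2 to 26.6) and 35.3 (33.1 to 37.5). Serpinb9 was at 0.146 (0.111 to 0.189), 0.430 (0.241 to 0.709) and 0.685 (0.418 to 1.06), where the last intervals overlap. Srgn was at 3.58 (3.40 to 3.77), 6.02 (5.23 to 6.89) and 6.92 (5.996 to 7.94), where they overlap too, so serglycin was present in barcodes without granzymes too. All 81 barcodes with Gzmk held Nkg7, as did 51 of 52 with Gzmb and 34 of 35 with Gzma. Prf1 was detected in 26 of 35 barcodes with Gzma (74.3%, 56.7 to 87.5%), 33 of 52 with Gzmb (63.5%), 46 of 81 with Gzmk (56.8%) and 30 of 59 with Gzmm (50.8%), and the interval for Gzma overlaps each of the others. These sets share barcodes, so the overlap of intervals cannot say whether the shares differ.

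Clonotypes, the groups of barcodes that share a TCR, were taken from the contig table of the authors. Among CD8-only barcodes, 461 had a clonotype seen in 1 barcode, 24 a clonotype of 2 and 32 a clonotype of 3 or more. Gzma, Gzmb or Gzmk was found in 53 of the 461 (11.5%, 8.73 to 14.8%), in 16 of the 24 (66.7%, 44.7 to 84.4%) and in 28 of the 32 (87.5%, 71.0 to 96.5%). The 56 barcodes of expanded clonotypes (2 or more) came from 19 clonotypes and are not independent of each other. They were shallower, with a median of 5321 UMIs against 7815. A clonotype was not given for 189 CD8-only barcodes, of which 155 had under 10% ribosomal UMIs, and 11 of these 189 (5.82%) held Gzma, Gzmb or Gzmk. By gene, Gzmk was found in 35 of 56 expanded barcodes (62.5%, 48.5 to 75.1%) and in 8.24% of single ones, Gzmb in 22 (39.3%) and 5.64%, and Gzma in 15 (26.8%) and 3.47%. Gzmm did not follow, with 4 of 56 (7.14%, 1.98 to 17.3%) and 50 of 461 (10.8%, 8.16 to 14.0%).

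In pooled UMIs, expanded against single, 5 of the 8 genes were at least 2-fold higher, where 8.28% of 9246 genes were, and 0 were lower, where 9.33% were. The ratio was 12.1 for Gzma (9.91 to 14.7), 11.4 for Gzmk (9.35 to 13.9), 9.54 for Gzmb (6.80 to 13.3), 3.27 for Prf1 (2.40 to 4.39) and 3.07 for Nkg7 (2.85 to 3.31). Srgn was 1.93-fold higher (1.67 to 2.23). On the log2 scale Gzma differed by 3.59, by 2.88 without the largest clonotype and by 4.43 with clonotypes set by the β-chain CDR3, and Gzmk by 3.51, and by 3.15 without the second largest clonotype. Gzmm (0.950, 0.399 to 1.95) and Serpinb9 (1.69, 0.777 to 3.29) did not differ beyond counting error. The second largest clonotype held 6 of the 8 expanded UMIs of Gzmm, and without it the log2 ratio of Gzmm went from -0.07 to -1.84 (-4.91 to 0.05). Of the listed effector genes, 9 of 9 were at least 2-fold higher, with Cx3cr1, a chemokine receptor of circulating effector cells, at 7.60-fold and the chemokine Ccl5 at 6.36-fold. Of the other lists, 7 of 9 memory genes, 4 of 4 inhibitory genes and the 2 cycling genes with enough UMIs were that much higher, with Tigit at 8.54-fold. Of the naive genes, 4 of 5 were at least 2-fold lower, among them Satb1 at 0.267 of the level in single barcodes.

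**Figure D3:**
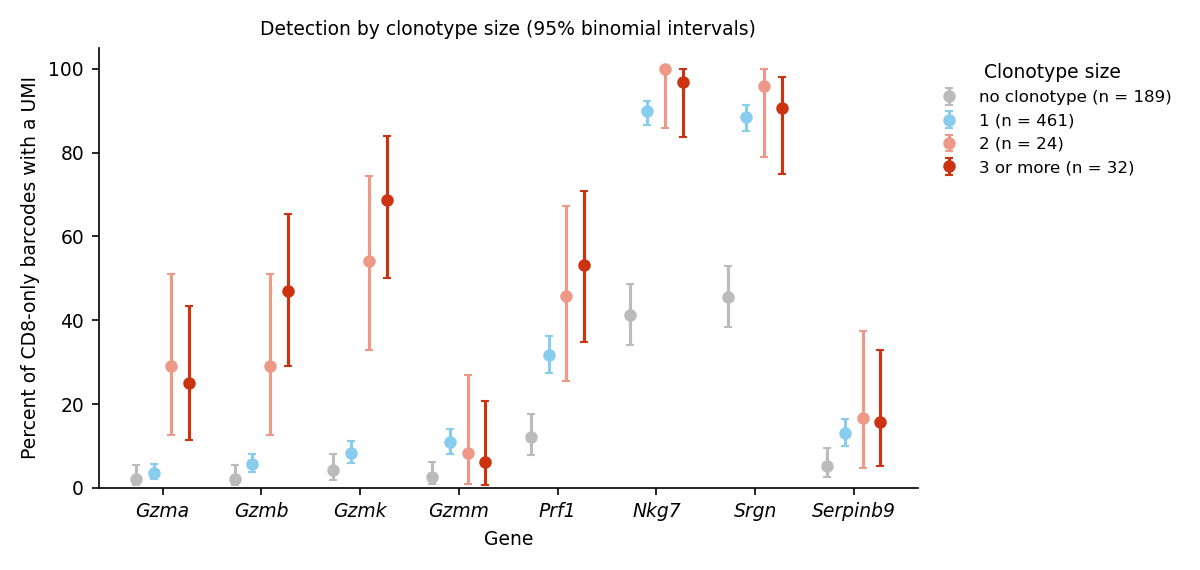
Percent of CD8-only barcodes with at least 1 UMI of each gene, by size of their clonotype (no clonotype, 1, 2, and 3 or more barcodes); bars are exact 95% binomial intervals. Gzma, Gzmb and Gzmk lie below 10% in barcodes of clonotypes of 1 and above 25% or at it in expanded ones, and Gzmm does not separate the sizes.

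Co-detection was also counted by clonotype size. Among the 461 single barcodes, Gzma and Gzmk were both found in 10, where the product of shares gives 1.32, and Gzma and Gzmb in 9, where it gives 0.902. Among the 56 expanded barcodes, Gzma and Gzmk were both found in 9, where the product gives 9.38, and Gzma and Gzmb in 8, where it gives 5.89. In expanded barcodes, at least 2 of Gzma, Gzmb and Gzmk were found in 24 of the 44 with any of them (54.5%, 38.8 to 69.6%), and in single ones in 21 of 53 (39.6%, 26.5 to 54.0%). These intervals overlap. In expanded barcodes Gzma and Gzmk thus did not exceed the product, although all 15 barcodes with Gzma could have held Gzmk. The excess over all CD8-only barcodes therefore does not describe this pair within expanded ones. Gzmb and Gzmk, the most frequent pair over all CD8-only barcodes, shared 9 expanded barcodes without Gzma or Gzmm. They shared 4 more with Gzma and 2 with Gzmm, among 22 expanded barcodes with Gzmb and 35 with Gzmk. All these counts are small, so the lack of an excess is not shown to be particular to Gzma and Gzmk. How far a count can exceed the product is bounded by the shares, which are higher in expanded barcodes, so the size of the excess is not compared between sizes.

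Single clones differed in the granzyme they carried. The TCR β-chain CDR3 sequences of the 6 CD8 clonotypes with 3 or more barcodes are shown to identify them, as in the contig table, with the first and the last codon in capitals. Clone 3 also had another β-chain CDR3 in some of its barcodes, which is not shown.
Clone 1: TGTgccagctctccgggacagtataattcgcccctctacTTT
Clone 2: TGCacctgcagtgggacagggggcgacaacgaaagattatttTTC
Clone 3: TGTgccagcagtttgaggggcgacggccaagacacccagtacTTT
Clone 4: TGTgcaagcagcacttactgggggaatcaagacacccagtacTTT
Clone 5: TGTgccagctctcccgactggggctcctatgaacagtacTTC
Clone 7: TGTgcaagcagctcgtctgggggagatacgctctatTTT
Clone 1 (9 barcodes, 1 of them in the Cd79a group) carried Gzma, with 10, 51, 18 and 21 UMIs in 4 barcodes and 0 in 5. Gzmk was at 1 UMI in 1 of its barcodes, so that Gzma was at 22.1 UMIs per 10000 (17.98 to 26.9) and Gzmk at 0.221 (0.00559 to 1.23). Clone 2 (8 barcodes) showed the opposite order. Gzmk was found in all 8, with 4 to 20 UMIs and 15.6 UMIs per 10000 (12.2 to 19.8), and Gzma in 2, with 1 and 2 UMIs (0.680, 0.140 to 1.99). Gzmb was alike in both, at 3.31 (1.86 to 5.47) and 2.95 (1.57 to 5.04). Clone 3 held 0, 5, 6, 11 and 9 UMIs of Gzmk, and the barcode without Gzmk held 2 UMIs of Nkg7 and 23 of Srgn. Clone 7 held 10, 9 and 5 UMIs of Gzmk, with 5 UMIs of Gzma in 1 barcode. In clone 5, each of the 4 barcodes held 1 UMI of Gzmk. Clone 4 held 3 and 2 UMIs of Gzmk in 2 of 4 barcodes.

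**Figure D4:**
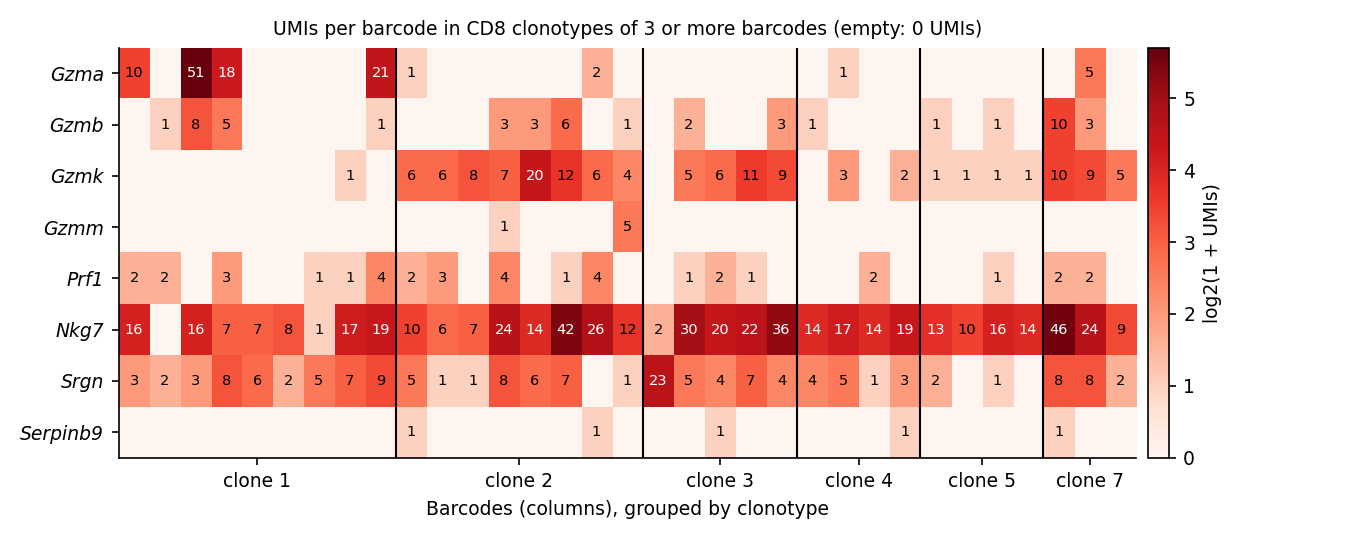
UMIs of the 8 genes (rows) in each barcode (columns) of the 6 CD8 clonotypes with 3 or more barcodes; the numbers are UMIs, the colour is log2(1 + UMIs) and empty fields are 0. Clone 1 has Gzma up to 51 UMIs in 4 barcodes and a single Gzmk UMI, clone 2 has Gzmk in all 8, and the 7th column of clone 1 is the barcode of the Cd79a group.

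Over the 17 clonotypes with at least 2 CD8-only barcodes, Gzmk was found in every barcode of 8 clonotypes, in no barcode of 5 and in some barcodes of 4. Gzma was found in every barcode of 2, in none of 8 and in some of 7, and Gzmb in every barcode of 1, in none of 6 and in some of 10. Nkg7 was found in every barcode of 16. Gzma and Gzmk were both present in 8 clonotypes, Gzmk without Gzma in 4, Gzma without Gzmk in 1 and neither in 4. Presence could rest on 1 UMI. Among the 8, clones 1 and 24 held 1 UMI of Gzmk each, and clone 4 held 1 UMI of Gzma. Clonotypes of 2 barcodes could hold high Gzma in 1 member and none in the other: clone 23 had 16 and 0 UMIs of Gzma with 16 and 11 of Gzmk, and clone 25 had 28 and 0 of Gzma with 2 and 6 of Gzmk. The 4 clonotypes with neither held 2 to 8 UMIs of Nkg7 in their 8 barcodes. The CD4 clonotype of 3 barcodes, clone 6, held no granzyme UMI and 0, 4 and 0 UMIs of Nkg7.

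CD8-only barcodes with Gzmk but neither Gzma nor Gzmb (here Gzmk alone) differed from those with Gzma or Gzmb but no Gzmk (Gzma or Gzmb alone) in other genes. The former were 40 barcodes (31 clonotypes among the 35 with a TCR) and the latter 26 without the NK-marker barcode (19 clonotypes among 24). Of 3187 genes, 5.08% were at least 2-fold higher and 4.2% at least 2-fold lower with Gzmk alone. Of the 3 inhibitory genes with enough UMIs, 2 were higher. Tigit, an inhibitory receptor, was found in 21 of 40 barcodes with Gzmk alone and in 2 of 26 with Gzma or Gzmb alone, at 1.86 and 0.181 UMIs per 10000, a ratio of 10.3 (3.29 to 52.1). Tox, a factor of chronically stimulated T cells, was at 6.01 and 1.08 UMIs per 10000 (5.55-fold, 3.37 to 9.65). Lag3 had 12 UMIs against 0, and Pdcd1, which encodes PD-1, did not differ beyond counting error (0.903, 0.388 to 2.14). Of the listed memory genes, Eomes (2.67-fold, 1.60 to 4.64) and Cd44 (2.32-fold, 1.40 to 4.01) were at least 2-fold higher with Gzmk alone. Ly6c2 (0.323, 0.262 to 0.397) was at least 2-fold lower. S100a4 (0.554, 0.400 to 0.764) and S100a6 (0.810, 0.693 to 0.947) were lower too, by less than 2-fold.

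Of the effector genes, 3 of 7 were at least 2-fold lower with Gzmk alone and 0 higher. S1pr5, which lets effector cells leave tissue, was at 0.243 of the level with Gzma or Gzmb alone (0.111 to 0.490), Cx3cr1 at 0.420 (0.227 to 0.755) and Zeb2, a factor of terminal effector cells, at 0.484 (0.296 to 0.779). Ccl5 was 1.65-fold higher (1.57 to 1.74). In barcodes without an expanded clonotype the ratio was 8.19 for Tigit (2.52 to 42.2), 5.35 for Tox (3.18 to 9.55), 1.82 for Eomes (1.04 to 3.29), 0.190 for S1pr5 (0.0565 to 0.507) and 0.696 for Cx3cr1 (0.311 to 1.52), where the last interval includes 1. Zeb2 was there at 1.21 times the level with Gzma or Gzmb alone (0.665 to 2.25), and in clonotypes of 1 alone its log2 ratio was -0.59 (-1.72 to 0.49). Without expanded clonotypes Pdcd1 had 14 UMIs with Gzmk alone against 2 (6.37-fold, 1.46 to 57.8). Nkg7 (1.11, 0.974 to 1.26), Srgn (0.976, 0.755 to 1.26) and Prf1 (0.750, 0.442 to 1.27) did not differ beyond counting error between barcodes with Gzmk alone and those with Gzma or Gzmb alone, clonotypes of any size included. Of the 4 members with enough UMIs, 0 were at least 2-fold higher and 1 was at least 2-fold lower with Gzmk alone, Gzmm at 0.476 (0.171 to 1.24), with 8 against 13 UMIs and an interval that includes 1.

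**Figure D5:**
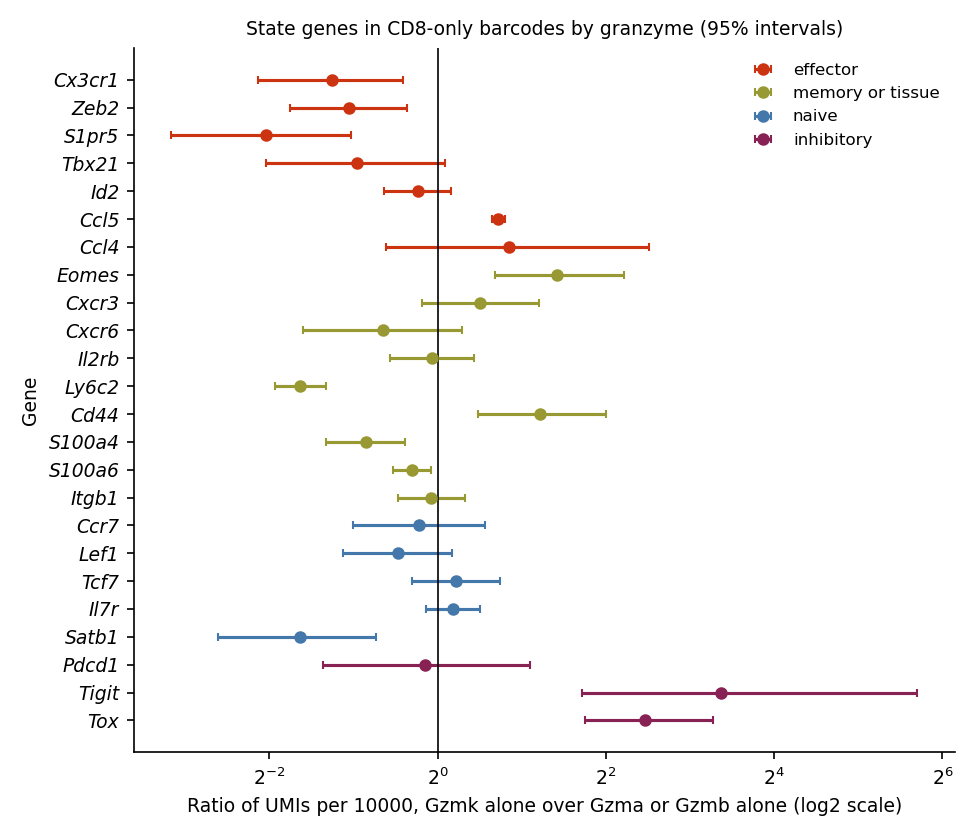
Ratio of UMIs per 10000 (log2 scale) in the 40 CD8-only barcodes with Gzmk alone over the 26 with Gzma or Gzmb alone, for listed genes that reached 20 UMIs over both, coloured by list; bars are exact 95% intervals and the line marks a ratio of 1. Tigit (10.3), Tox (5.55), Eomes (2.67) and Cd44 (2.32) lie to the right and S1pr5 (0.243), Ly6c2 (0.323) and Satb1 (0.322) to the left.

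The 41 barcodes with Gzmk together with Gzma or Gzmb held genes of both kinds. Tigit was at 2.15 UMIs per 10000 (1.62 to 2.80) and Tox at 5.12 (4.28 to 6.08), near the values with Gzmk alone. Cx3cr1 was at 2.42 (1.86 to 3.11), near the 2.11 (1.47 to 2.93) with Gzma or Gzmb alone, and Klrg1, a receptor of terminal effector cells, was found in 19 of 41 barcodes at 1.33 (0.921 to 1.86). S1pr5 was at 0.782 (0.478 to 1.21), nearer to the 0.512 with Gzmk alone than to the 2.11 with Gzma or Gzmb alone. Klrg1 was found in 0 of 598 barcodes with none of the 3 granzymes, and Tigit in 24 of them. Expanded clonotypes made up 20 of the 41 barcodes (48.8%, 32.9 to 64.9%), 15 of the 40 with Gzmk alone (37.5%, 22.7 to 54.2%), 9 of the 26 with Gzma or Gzmb alone (34.6%, 17.2 to 55.7%) and 12 of the 598 with none (2.01%, 1.04 to 3.48%).

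The genes most like each granzyme in level over the 706 CD8-only barcodes were then ranked. Pearson r was computed on ln(1 + UMIs per 10000) over 9310 genes, and the barcodes share 1 library. For Gzma the closest genes were Cx3cr1 (r = 0.54), Klrc1 (0.48), Klrg1 (0.46), Lgals3 (0.44) and Lgals1 (0.42). For Gzmb they were Cx3cr1 (0.54), Lgals1 (0.50), Ccl5 (0.49), Klrg1 (0.48) and Lgals3 (0.46). For Gzmk they were Ccl5 (0.62), Tigit (0.60), Eomes (0.53), S100a6 (0.52) and S100a11 (0.50). For Gzmm the highest r was 0.30, with Ccl5. Among the granzymes, r was 0.50 for Gzma and Gzmb, 0.45 for Gzmb and Gzmk, 0.30 for Gzma and Gzmk and 0.02 to 0.10 for the pairs with Gzmm.

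The other granzyme genes of the mouse cluster on chromosome 14, Gzmc, Gzmd, Gzme, Gzmf, Gzmg and Gzmn, were at 0 UMIs in CD8-only, Cd79a and NK-marker barcodes, and 1 UMI of Gzmc was found in a CD4-only barcode. Of the 24 listed genes of granule content and release, 17 had enough UMIs, and 3 of these were at least 2-fold higher in CD8-only than in CD4-only barcodes, where 4.24% of all genes were. These were the granule protease Ctsw (5.62-fold, 4.63 to 6.88), the protease inhibitor Cst7 (5.39-fold, 3.85 to 7.77) and Serpinb6b (3.69-fold, 1.87 to 8.29), a serpin. The median ratio over the 17 was 1.12, and 0 were 2-fold lower, where 7.02% of all genes were. Between expanded and single CD8-only barcodes, 5 of 17 were at least 2-fold higher, where 8.28% of all genes were. Stx11, a syntaxin needed for granule fusion, had 15 against 18 UMIs (10.0-fold, 4.69 to 21.0), the death ligand Fasl differed by 5.85-fold (3.86 to 8.72) and Ctsd by 2.60-fold (2.20 to 3.06). Ctsw (1.09, 0.911 to 1.29) and Cst7 (1.07, 0.774 to 1.44), which separated CD8-only from CD4-only barcodes, did not separate expanded from single ones.

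Outside the CD8-only group and the NK-marker barcodes, 38 barcodes held a granzyme UMI. In the CD4-only group Gzmk was found in 6 barcodes with 1 to 15 UMIs, and 4 of the 6 had at least 2 UMIs of Nkg7 beside it. Gzmb was found in 5 CD4-only barcodes other than the NK-marker barcode. Across these groups, 4 barcodes held Gzmb (2, 5, 6 and 1 UMIs) and no Nkg7. All 4 held Foxp3, the factor of regulatory T cells, at 14, 12, 4 and 2 UMIs, with 21, 34, 28 and 14 UMIs of Srgn. They lay in the CD4-only group (1), among barcodes with both coreceptors (1) and in the no-coreceptor group (2), and were singled out after the values were seen. Over CD4-only barcodes other than the NK-marker barcode, Gzmb was found in 2 of 15 with Foxp3 (13.3%, 1.66 to 40.5%) and in 3 of 350 without (0.857%, 0.177 to 2.48%). The 2 include the CD4-only barcode singled out above, so this share is not independent of that choice. Srgn was at 8.45 UMIs per 10000 in the 15 and at 5.07 in the 350.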

How the data were processed

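The authors processed the reads with the CellRanger pipeline and deposited a matrix of UMI counts that had not been normalized, with no cell filter applied, and a table of TCR contigs with the clonotype of each barcode. Per the file headers the matrix was written by Cell Ranger 4, and the submitters' processing notes name GRCm38. UMI counts collapse PCR copies of 1 molecule. Reads shared by near-identical genes may be lost in counting, which bears on the other granzymes of the Gzmb cluster.

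Called barcodes were those with at least the 99th percentile of the 3000 largest UMI totals divided by 10, a limit of 1330.88 UMIs. No doublet caller was run and doublets were kept. Leaving out the 1% of barcodes with most UMIs was an alternative. Groups were disjoint, and barcodes with a Cd79a UMI were taken out first. Clonotype size was counted over barcodes that the contig table calls cells, with a productive, high-confidence contig. Shares have exact Clopper-Pearson and pooled UMI rates exact Poisson intervals (95%), and ratios of pooled rates exact conditional binomial intervals. All cover counting error only. For 0 UMIs the upper limit uses 3 counts. Ratios were computed for all genes with at least 20 UMIs over both groups, and "called" means at least 2-fold. Thinning to 2500 UMIs was computed in expectation from the hypergeometric distribution, and shallower barcodes were left out. Python 3.11.15, NumPy 2.4.6, pandas 2.3.3 and SciPy 1.17.1 were used, and the functions were tested on simulated data. Promoter sequences and positions are RefSeq's on GRCm38.p6, and all 8 genes were matched by symbol.

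Named genes are the 8 members, 24 genes of granule content and release, lists of effector, memory, naive, inhibitory and cycling genes, markers of T, NK and B cells, neutrophils and platelets, and the 5 genes with the highest Pearson r with each granzyme. One gene of the naive list is not reported here and was left out of its counts. The members and lists were chosen with earlier results of these data known. The definition of NK-marker barcodes, and what rests on it, was set after the data were seen. Alternatives were other UMI limits, at least 2 UMIs for detection or for a coreceptor, removal of barcodes under 10% ribosomal UMIs and removal of single clonotypes. Other libraries of the study were not analysed here.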

Additional observations from a re-analysis of the deposited data

Results flagged for a closer look

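Serglycin RNA was found at a high level in barcodes outside the comparisons above, those of 200 to 1330 UMIs, below the limit for a called cell. Over these 1908 barcodes Srgn stood at 32.9 UMIs per 10000 (2372 UMIs, in 1103 barcodes), where CD8-only barcodes held 3.98 and Cd79a barcodes 6.83. It was at 40.5 UMIs per 10000 in the 1560 barcodes with a UMI of the platelet markers Pf4, Ppbp, Itga2b or Gp9 and at 3.67 in the others. Serpinb9 stood at 0.249 UMIs per 10000 there (18 UMIs), with 0.315 in barcodes with a platelet marker UMI and 0 in the others. The others are far fewer, so their 0 does not show that Serpinb9 is confined to barcodes with a platelet marker UMI. Srgn and Serpinb9 were singled out for their level. It lay above the limit that a count of 0 allows, 0.0416 per 10000, but so did Nkg7 (0.748), Gzma (0.111) and Gzmk (0.097). Unlike these, Srgn also lay above its level over all 1600 called barcodes, 4.99. Serpinb9 (0.148 to 0.394) did not differ beyond counting error from its level over the called barcodes, 0.189 (0.160 to 0.222).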

How the results depend on the processing

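No paired analysis was possible because there was 1 sample. Of 52 values of the main comparisons recomputed under alternatives, 48 stayed within their interval or within 1.5 times and 4 moved. The share of CD8-only barcodes with Gzma, Gzmb or Gzmk, 15.3%, was 19.2% without barcodes under 10% ribosomal UMIs and 11.6% when at least 2 UMIs counted as detection. With at least 2 UMIs it was 62.5% in clonotypes of 2 or more and 8.46% in clonotypes of 1, where 1 UMI gave 78.6% and 11.5%. A stricter count lowers a share by construction, and the cause of the rise to 19.2% was not tested. Of the other 455 values 406 stayed, 48 moved and 1 with a difference of at least 2-fold changed direction: Zeb2 with Gzmk alone against Gzma or Gzmb alone went from -1.05 on the log2 scale to 0.28 without clonotypes of 2 or more, where barcodes with no clonotype were kept, and to -0.59 in clonotypes of 1. The smaller differences in Pdcd1 (-0.15) and Itgb1 (-0.07) became 3.73 and 0.63 in clonotypes of 1, and those in Gzmm, Id2 and Il2rb changed sign within their intervals. Without the second largest clonotype Gzmm in expanded against single barcodes went from -0.07 to -1.84. Leaving out the largest or second largest clonotype, the NK-marker barcodes or, for the granzyme classes, expanded clonotypes was chosen after seeing the data. Thinning can only lower the chance of detection in a barcode. In CD8-only barcodes the thinned shares of Serpinb9, Gzmm and Prf1 were 4.84%, 4.54% and 14.3% where all UMIs gave 11.2%, 8.36% and 27.9%. Those of Nkg7 and Srgn were 67.9% and 56.6% where all UMIs gave 77.5% and 77.3%.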

Other observations

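Granzyme M outside the coreceptor groups was highest in a pair of barcodes with T cell receptor delta RNA. Among no-coreceptor barcodes, the 2 with most Gzmm held 5 and 4 UMIs of it, and each held 3 UMIs of Trdc, the delta chain constant gene, with 22 and 10 UMIs of Nkg7. The barcode with 5 had a TCR clonotype, seen in 1 barcode, and 27 UMIs of the T cell markers. The barcode with 4 had no clonotype and 17 UMIs of these markers. Another no-coreceptor barcode had 3 UMIs of Gzmm, 0 of Trdc and 14 of Nkg7. These barcodes were singled out after their values were seen.

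One CD4-only barcode of 13308 UMIs held 3 granzymes, with 3 UMIs of Gzma, 1 of Gzmb and 15 of Gzmk beside 19 of Nkg7. It was the only CD4-only barcode with Gzma other than the NK-marker barcode.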
